A study of Mus musculus with 2 samples.

Results

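Kupffer cell identity and scavenger genes were examined in the livers of mice lacking Pnpla8 and of wild-type mice. The set held 10 genes, Clec4f, Marco, Cd5l, Vsig4, Timd4, Adgre1, Csf1r, Cd68, C1qa and Cd163, out of 31044 gene names on the array. Its members were taken by the gene name printed for each non-control probe in the scanner files, which gave 13 probes, and each of these probes was spotted once. Adgre1 was listed under its present name and not as Emr1.

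Both groups were of strain C57BL/6N. The control group was Pnpla8+/+ and the other was Pnpla8-/-, and lacks a phospholipase that releases fatty acids from the phospholipids of mitochondria and other membranes. Each group was 1 one-colour Agilent array carrying equal amounts of liver RNA from 5 animals, so the spread between animals was not measured. The sample labels give an age of 6 weeks and the series design gives 8 weeks. The labels do not say how the allele was made, which sex was used or whether cells other than hepatocytes kept the gene.

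Kupffer cells are the resident macrophages of the liver sinusoids. They sit in the blood stream, where they take up bacteria, aged red cells, modified lipoproteins and dying cells through scavenger, complement and phosphatidylserine receptors. Their survival depends on signals through the receptor tyrosine kinase CSF1R, and they carry surface proteins such as CLEC4F, VSIG4 and TIM-4. In RNA from whole liver, fewer Kupffer cells and less of a transcript per Kupffer cell cannot be told apart.

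The probes from which 4 of the members were read are printed here, from 5′ to 3′ in the sense of the transcript, because their letters define what was measured for a Kupffer-restricted lectin, a macrophage adhesion receptor, a complement chain and a haemoglobin receptor. They come from the scanner files, which place them in build mm9 at chr6:83595281-83595339 on the minus strand (Clec4f), chr17:57620350-57620409 on the plus strand (Adgre1), chr4:136452409-136452468 on the minus strand (C1qa) and chr6:124270436-124270495 on the plus strand (Cd163). The interval given for Clec4f spans 59 bases while its probe has 60 letters, and this mismatch was not resolved. Exon and UTR boundaries were not analysed here.
Clec4f probe A_51_P271865: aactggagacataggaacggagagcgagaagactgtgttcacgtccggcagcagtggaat
Adgre1 probe A_55_P2018934: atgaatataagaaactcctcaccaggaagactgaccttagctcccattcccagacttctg
C1qa probe A_51_P181451: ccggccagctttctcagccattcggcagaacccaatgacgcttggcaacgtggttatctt
Cd163 probe A_55_P2289819: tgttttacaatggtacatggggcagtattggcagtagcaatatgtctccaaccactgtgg

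The scanner software marked 70.1% of the 43020 non-control spots of the wild-type array and 65.6% of those of the knockout array as well above background, and no member's spot was saturated. The arrays differed in brightness, with a 75th percentile of 1207 on the wild-type and 1018 on the knockout array. Pnpla8, the targeted gene, had a signal of 144.5 in wild-type RNA. Its knockout signal of 4.45 did not clear background, so the gene was at least 6.81-fold lower there, and whether its single probe lies in the deleted part was not settled by the labels. Of the markers of hepatocytes, 14 of 15 were measured on both arrays. Because each genotype had 1 array, differences had no check by replicates and no test was run. A gene was therefore called lower or higher at a fixed size of at least 2-fold, as the log2 ratio of knockout over wild type after each array was scaled to its 75th percentile.

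All 10 Kupffer cell genes were measured on both arrays and all 10 were lower in the knockout pool. The members' median log2 ratio was -0.95, or 1.94-fold lower, against a median of 0.04 over all 19951 measured genes. Of the members, 5 were at least 2-fold lower (Marco, Cd5l, Adgre1, Timd4 and C1qa) and the other 5 were between 1.77-fold and 2-fold lower. Against this, 1.85% of all measured genes were at least 2-fold lower, 1.29% at least 2-fold higher, and 43.1% below 0. Calls of higher made up 41.1% of all calls at 2-fold, a share that was 13.3% without scaling, 18.6% with spike-in scaling and 51.3% with the normexp background. Within the range of wild-type signal that the members span, 2.17% of 16557 genes were at least 2-fold lower and 0.912% at least 2-fold higher. Within the range spanned by the members other than Cd163, 1.36% of 7769 genes were at least 2-fold lower.

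**Figure D1:**
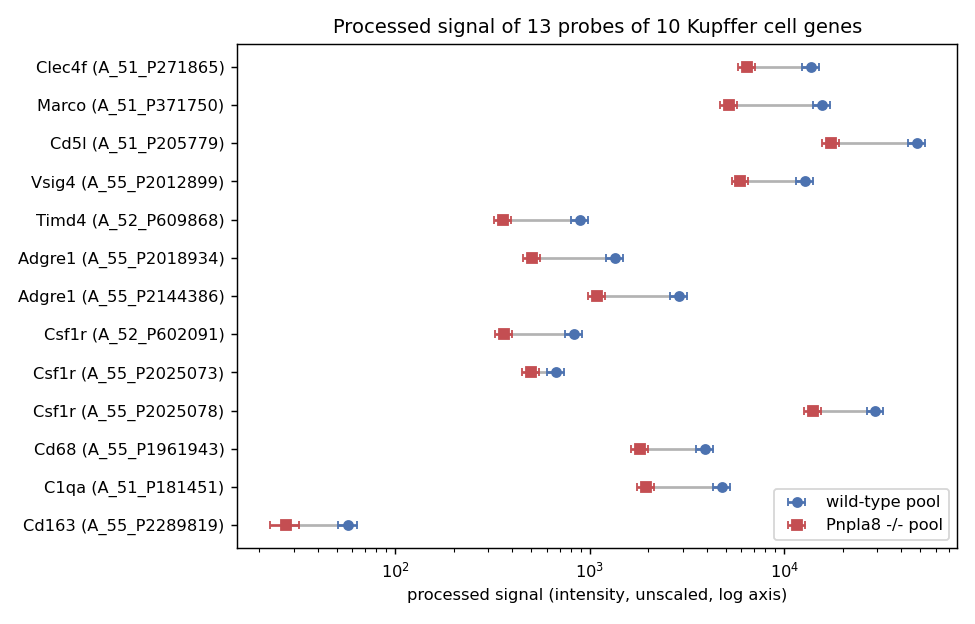
Processed signal of each probe on the wild-type array (blue circles) and the Pnpla8-/- array (red squares), unscaled, on a log axis in arbitrary intensity units; bars are the error given by the scanner software for that spot. The knockout value lies left of the wild-type value for all 13 probes, from 47951 against 17363 for Cd5l to 57.3 against 27.3 for Cd163.

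Among the proteins most restricted to Kupffer cells, Clec4f, a galactose-binding C-type lectin, had a processed signal of 13773 in wild-type and 6447 in knockout RNA. Its log2 ratio was -0.85 ± 0.20, where the error here and for the probes that follow is the one the scanner software gives for the 2 spots and covers the measurement alone. Vsig4, the complement receptor CRIg that captures C3-coated bacteria from blood, read 12768 and 5953, a log2 ratio of -0.86 ± 0.20. Timd4, the phosphatidylserine receptor TIM-4 of long-lived resident Kupffer cells, read 892 and 357. That was 2.11-fold lower (log2 ratio -1.07 ± 0.20), and with the normexp background its log2 ratio was -0.95, short of 2-fold. The 3 genes were thus lower by a like amount, with log2 ratios from -1.07 to -0.85.

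Among the scavenger genes, Marco, a class A scavenger receptor for bacteria and particles, had the lowest ratio of any member. Its probe read 15585 in wild-type and 5198 in knockout RNA, which was 2.53-fold lower (log2 ratio -1.34 ± 0.20). Of all measured genes, 0.526% had a lower ratio than Marco. Cd5l, a secreted scavenger protein of macrophages also called AIM, read 47951 and 17363, 2.33-fold lower (log2 ratio -1.22 ± 0.20). The remaining scavenger genes were within 2-fold. Cd68, a lysosomal glycoprotein of the LAMP family that binds oxidised lipoproteins, read 3896 and 1816, a log2 ratio of -0.86 ± 0.20. Cd163, which clears haemoglobin bound to haptoglobin, read 57.3 and 27.3, a log2 ratio of -0.83 ± 0.29. Its signals lay close to the lowest signals that counted as well above background, 14.7 on the wild-type and 17.9 on the knockout array, and with the normexp background its log2 ratio was -0.18.

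Among the genes shared by most tissue macrophages, Adgre1, the adhesion receptor long used as a mouse macrophage marker, was measured by 2 probes. They read 1354 and 2881 in wild-type and 507 and 1092 in knockout RNA, with log2 ratios of -1.17 and -1.15. These differed by 0.02, within their combined error of 0.29, and gave a gene ratio 2.24-fold lower. C1qa, which encodes the A chain of the complement starter C1q, read 4759 and 1939, 2.07-fold lower (log2 ratio -1.05 ± 0.20). Scaled to the array median, its log2 ratio was -0.99, short of 2-fold.

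Csf1r, the receptor for the macrophage growth factors CSF1 and IL-34, was measured by 3 probes that did not give 1 value. Probe A_55_P2025078 read 29426 in wild-type and 14014 in knockout RNA, a log2 ratio of -0.82. Probe A_52_P602091 read 834 and 362, a log2 ratio of -0.96. Those differed by 0.13, within their combined error. Probe A_55_P2025073, which of the 3 lies nearest the 5′ end of the gene, read 669 and 499.8, a log2 ratio of -0.17. It differed from the other probes by 0.65 and 0.78, beyond combined errors of 0.29 in both cases. The median over the probes, -0.82, is the gene's value here; their mean was -0.65, and without that probe the median over all 10 members was -0.97.

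**Figure D2:**
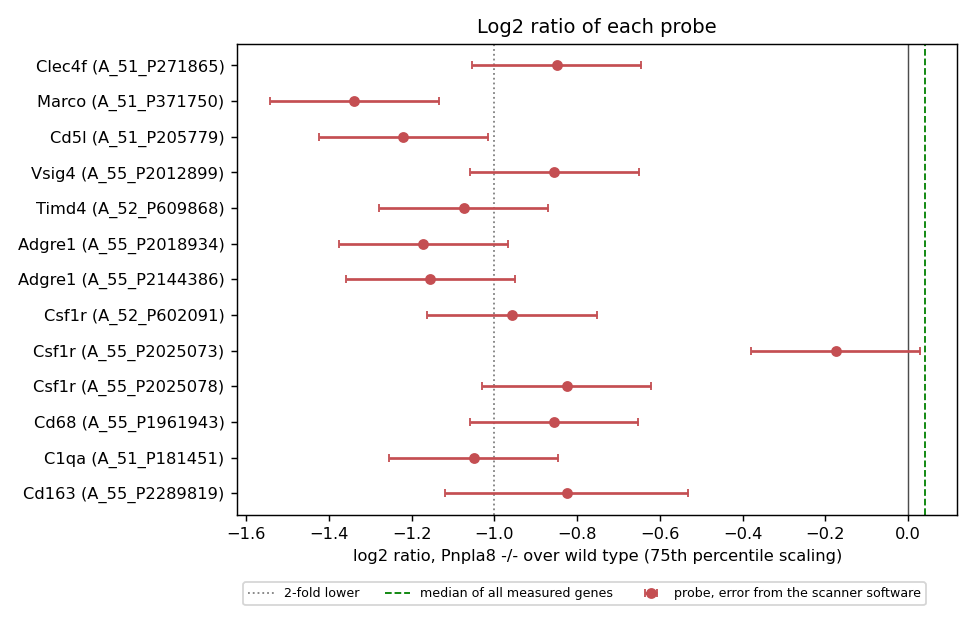
Log2 ratio of knockout over wild type for each probe after scaling to the 75th percentile, with the error from the scanner software as bars. The dotted line marks 2-fold lower and the dashed line the median of all measured genes, 0.04; 12 probes lie between -1.34 and -0.82 and the Csf1r probe A_55_P2025073 at -0.17.

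The members' log2 ratios ran from -1.34 to -0.82. Ordered from lowest to highest ratio they were Marco, Cd5l, Adgre1, Timd4, C1qa, Cd68, Vsig4, Clec4f, Cd163 and Csf1r. None of the 9 neighbouring pairs in that order differed beyond their combined error. Sorting by ratio makes neighbours the closest pairs, so this cannot show that the members were alike. The ends of the order, Marco and Csf1r, differed by 0.51 against a combined error of 0.29. The SD of the log2 ratio over the 10 members was 0.19, next to an error of 0.20 for all probes but that of Cd163. Grouped by role, the median was -0.86 for the Kupffer-restricted surface proteins, -1.04 for the scavenger genes and -1.05 for the genes shared by macrophages. For comparison, different probes of 1 gene had a median SD of 0.10 over 4286 genes, and spots of 1 probe 0.05 over 298 probes. These spreads are technical and say nothing of the spread between pools of animals.

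**Figure D3:**
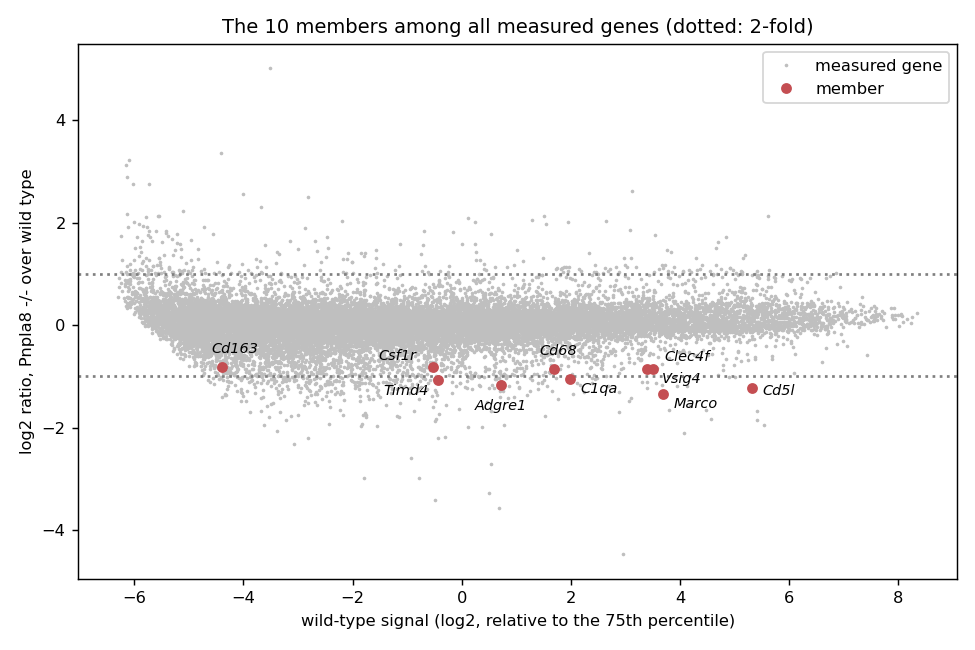
Log2 ratio of knockout over wild type against the wild-type signal (log2, relative to the 75th percentile) for 19951 measured genes (grey) and the 10 members (red, named). Dotted lines mark 2-fold; the members lie along the lower edge of the cloud over a wide range of signal.

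Of the 10 members, 7 had an entry in the RefSeq promoter table of build GRCm38.p6, and the 250 bases before the start were searched on both strands for 4 letter strings, of which AGGAAG and GGAAGT are forms of the core bound by PU.1, the ETS factor that macrophage promoters are known for. AGGAAG was present for Marco and Cd5l, 2 of 7, and in 29.5% of all 32851 promoters of that length. GGAAGT was present for Clec4f, Timd4 and Vsig4, 3 of 7, and in 19.7% of all promoters. These 2 strings overlap, and at least 1 of them was present for 5 of 7 members and in 38.8% of all promoters. TGAGTCA, the AP-1 core, was present for Cd68, 1 of 7, and in 4.46% of all promoters, and TGCTGA, part of the element bound by MAF factors, for Cd5l, Clec4f and Timd4, 3 of 7, and in 16.1%. A match is a description of the letters and not a binding site. The strings were chosen after these sequences were seen, so the shares are not a test of the members. The promoters of Marco and Vsig4 are shown for a receptor past 2-fold and one short of it, with the matches to the PU.1 strings in capitals; they lie at chr1:120505025-120505274 and chrX:96293439-96293688, both read from the minus strand.
Marco promoter: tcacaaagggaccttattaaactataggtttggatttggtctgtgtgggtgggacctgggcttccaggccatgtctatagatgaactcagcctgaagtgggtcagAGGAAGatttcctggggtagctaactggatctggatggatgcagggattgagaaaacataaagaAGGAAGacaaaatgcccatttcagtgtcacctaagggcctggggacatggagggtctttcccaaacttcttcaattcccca
Vsig4 promoter: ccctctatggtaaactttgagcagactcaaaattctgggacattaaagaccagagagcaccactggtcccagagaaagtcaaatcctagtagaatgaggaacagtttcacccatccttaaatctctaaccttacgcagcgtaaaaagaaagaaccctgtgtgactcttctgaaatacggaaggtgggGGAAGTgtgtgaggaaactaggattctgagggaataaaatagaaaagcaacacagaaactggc

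Other genes enriched in Kupffer cells were also mostly lower, with ratios from -1.17 to 0.22. Of 17 listed, 15 were measured, 13 of them below 0, 3 at least 2-fold lower and none at least 2-fold higher, with a median of -0.64. Over all measured genes, 43.1% were below 0. The folate receptor gene Folr2 had a log2 ratio of -1.14, the interferon factor Irf7 -1.08 and Pcolce2 -1.17, the last of these -0.90 and short of 2-fold with the normexp background. Il18bp, which encodes an inhibitor of interleukin-18, had -0.97. Tmem26 cleared background in wild-type RNA alone and was at least 2.07-fold lower, a bound of 1.08-fold with the normexp background. The 2 genes above 0 were Nr1h3, the oxysterol receptor LXR alpha, at 0.10, and Hpgd at 0.22.

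The ligands of CSF1R and the factors that set macrophage identity had a median close to that of all genes. Of 16 listed, 14 were measured, with a median of -0.09 and none at least 2-fold lower. Spi1, which encodes PU.1, cleared background in wild-type RNA alone and was at least 2.10-fold lower, a bound of 1.17-fold with the normexp background. Irf8 had a log2 ratio of -0.75, and the cytokine receptor subunits Csf2rb and Csf2ra had -0.72 and -0.66. The ligand Csf1 had -0.40 and Il34 0.31.

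C1qa's partner chains stood near it. C1qb had a log2 ratio of -0.93 and C1qc -0.85, next to -1.05 for C1qa itself. The whole list of C1q partners, complement receptors and regulators had a median of -0.33 over 16 measured genes, with 1 at least 2-fold lower and none at least 2-fold higher. That gene was the integrin Itgax, at -1.14 and short of 2-fold with the normexp background (-0.84). The integrin chain Itgb2 had -0.87. C3, made mostly by hepatocytes, had 0.21 and the inhibitor gene Cfi 0.02.

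Scavenger, lectin and engulfment receptors outside the set were mixed. Of 30 listed, 28 were measured, with a median of -0.27, 3 at least 2-fold lower and none at least 2-fold higher. Of the 28, 20 were below 0, against 43.1% of all measured genes. The log2 ratios ran from -1.40 to 0.92, the highest being that of Cd36. The sialic acid receptor Siglec1 had -1.40, the beta-glucan receptor Clec7a -1.20 and the Fc receptor Fcgr1 -1.14. With dim probes kept, Siglec1 was short of 2-fold (-0.98), as was Fcgr1 with the normexp background (-0.71). The Fc receptor gamma chain gene Fcer1g had -0.98.

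Relatives of the members by family had a median of -0.42, or -0.23 with the normexp background, over 16 measured genes of 21. Adgre4, a neighbour of Adgre1 in its family, had a log2 ratio of -1.06, and Clec4a3 had -1.15, both short of 2-fold with the normexp background (-0.89 and -0.84). Clec4d was at least 2.52-fold lower, a bound of 1.20-fold under normexp. Timd2 had -0.74 and Cd5, a scavenger-domain receptor of T cells, -0.77. The lysosomal relatives of Cd68, Lamp1 and Lamp2, had 0.17 and 0.15.

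Markers that Kupffer cells share with other myeloid cells were lower too. All 25 listed were measured, 24 were below 0, 6 were at least 2-fold lower and none at least 2-fold higher, with a median of -0.91 that was -0.73 with the normexp background. The share below 0 was 43.1% over all measured genes. Ly86, the partner of the receptor RP105, had -1.44, the tetraspanin Cd53 -1.23, the adaptor Tyrobp -1.19 and the protease Ctss -1.16. Cd53 fell short of 2-fold with normexp (-0.73). Genes of monocytes and recruited or lipid-associated macrophages had a median of -0.96, or -0.47 with normexp, over 12 measured genes of 15. All 12 were below 0 and 6 were at least 2-fold lower, or 3 with normexp. The fatty acid-binding protein gene Fabp5 had -1.85, Cd9 -1.20 and the galectin Lgals3 -1.11. Ms4a4c had a median of -1.29 over 3 probes that ran from -1.47 to 0.89, so its direction depends on the probe.

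**Figure D4:**
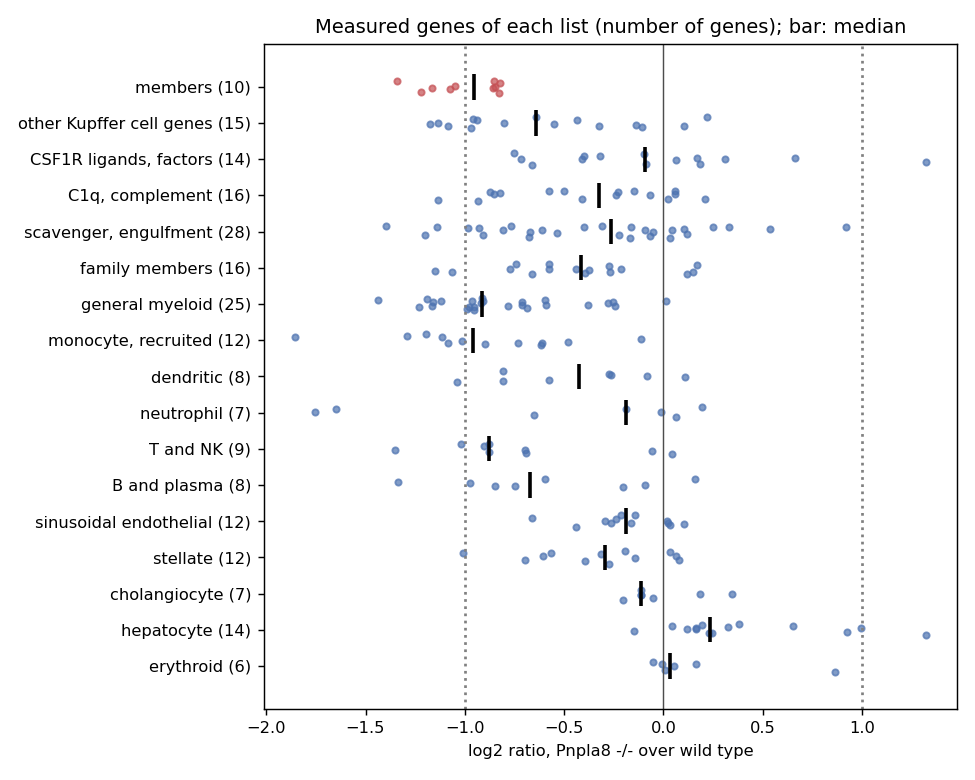
Log2 ratio of knockout over wild type for every measured gene of each list, 1 point per gene, with the number of measured genes in brackets and the median as a black bar. The 10 members run from -1.34 to -0.82, and the general myeloid and monocyte lists have medians of -0.91 and -0.96, while the sinusoidal endothelial list has -0.19 and the hepatocyte list 0.24.

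Markers of other cells in the liver were measured beside these, and their part in the result was not tested. Summed over the measured genes of a list, in units of each array's 75th percentile, the members came to 84.9 in wild-type and 39.6 in knockout RNA. Cd5l alone gave 39.7 and 17.1 of these sums, and the other 9 members came to 45.2 and 22.6. The same sum was 61.3 and 55.1 for 12 of 13 sinusoidal endothelial markers (median log2 ratio -0.19, none past 2-fold). For all 12 stellate cell markers it was 58.1 and 56.7 (median -0.29, 1 at least 2-fold lower). Dcn alone gave 42.6 and 43.7 of the stellate sums, and the other 11 markers of that list came to 15.4 and 13.01. For T and NK cells the sum was 3.80 and 2.82 over 9 of 12 markers (median -0.88, 2 at least 2-fold lower), with no value for Trac, Ncr1 and Cd8a. Cd3e gave 0.97 and 0.93 of these, and the other 8 T and NK markers came to 2.84 and 1.89. For B and plasma cells the sum was 1.15 and 0.70 over 8 of 10 markers (median -0.67, 1 at least 2-fold lower), without Pax5 and Blk. Dendritic cell markers came to 2.84 and 2.17 over 8 of 10 (median -0.42, 1 at least 2-fold lower), without Xcr1 and Itgae. With the normexp background the medians of these 3 lists were -0.39, -0.17 and -0.13, with 0 genes at least 2-fold lower in each. Neutrophil markers came to 60.1 and 61.8 over 7 of 10 (median -0.19, or -0.0055 with normexp, and 2 at least 2-fold lower), without Ly6g, Cxcr2 and Ngp. Csf3r alone gave 57.4 and 60.04 of these sums, and the other 6 neutrophil markers came to 2.67 and 1.79. Cholangiocyte markers came to 1.21 and 1.15 over 7 of 8 (median -0.11) and erythroid markers to 16.5 and 17.2 over 6 of 8 (median 0.03). Hepatocyte markers came to 1859 and 2332 over 14 of 15, with a median of 0.24 that depended on the scaling. It was 0.30 with median scaling and 0.21 with normexp. With quantile, loess and spike-in scaling it was 0.05, 0.08 and 0.07, and without scaling -0.01.

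How the arrays were scaled set how many members passed 2-fold and not their direction. All 10 were below 0 under each of the 12 other ways of processing the signals, except that 1 of those left Cd163 out and measured 9. Some of these could not move the members' ratios. The deposited table holds the same signal divided by a constant per array. No member spot was marked as an outlier and all cleared background, so keeping outliers or dim probes changed no member. Other summaries over probes could change only Adgre1 and Csf1r. Counts at 2-fold ran from 4, with median scaling or the normexp background, to 10 without scaling, where the median of all genes was -0.21. Relative to the median of all genes, the members' median stayed between -1.09 and -0.98.

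**Figure D5:**
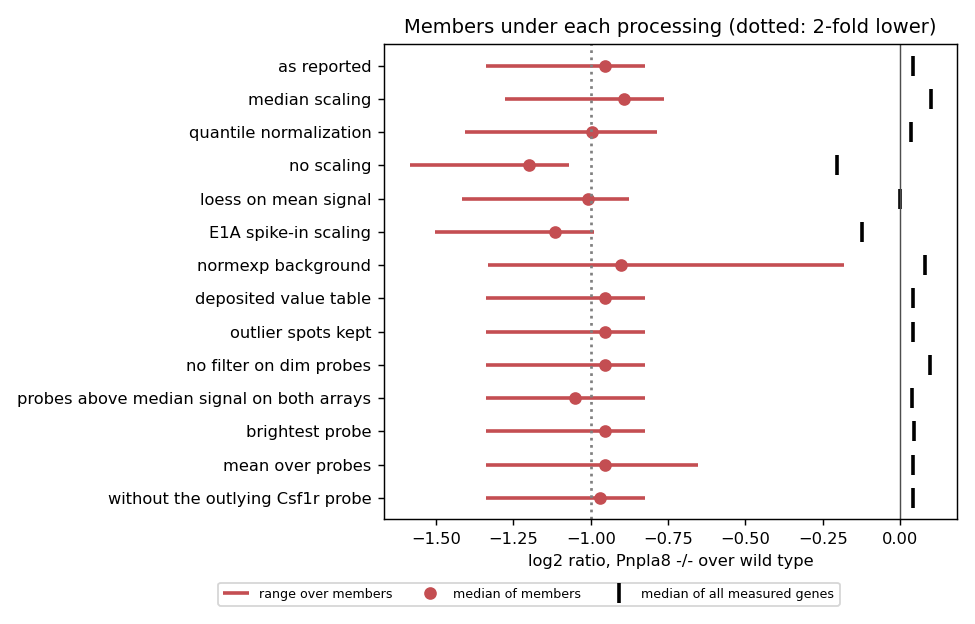
Median (circle) and range (line) of the members' log2 ratios under each processing, with the median of all measured genes as a black tick and 2-fold lower as a dotted line. The members' median runs from -1.20 to -0.89 and no range reaches 0; with the normexp background the range ends at -0.18, the value of Cd163.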

How the data were processed

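RNA pooled from the livers of 5 animals per genotype was read on 1 one-colour Agilent array each. Per the labels' protocols, 200 ng of RNeasy-purified RNA was labelled with Cy3 after amplification. The submitters' processing notes name Agilent Feature Extraction 11.5.1.1, with which the authors measured spot intensity; the deposited scanner files hold it raw and background-subtracted, with an error per spot, and name build mm9, per the file headers. The deposited value table is that intensity divided by 1207 (wild type) or 1019 (knockout). Its column medians were 0.0800 and 0.0763, and its scale is linear. The constants lie close to the arrays' 75th percentiles of 1207 and 1018, though the rule behind them stays unknown. No per-sample column was left unused (0).

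Log2 processed signal minus each array's 75th percentile was used, without control spots or spots marked as outliers (119 on the wild-type and 170 on the knockout array). A probe counted as measured if both arrays put it well above background, and genes took the median of their measured probes. Where 1 array alone did, the gene had a bound, set by its bright value and, on the other array, its own value or the lowest one well above background, whichever was higher. The error of a probe's ratio combines the software's errors of its 2 spots, which are near 10% of the signal. Of 39429 probes, 28317 were named by accession and 2378 by name through RefSeq (assembly GRCm38.p6), 13 as members, and 8721 kept the file's name. RefSeq promoter sequences come from the same assembly. The members and lists were chosen with earlier results of these data known, and the promoter strings after the sequences were seen. Named genes were all members, Pnpla8, and per list up to 4 genes with the largest absolute ratio and any bound of at least 2-fold. Nr1h3, Hpgd, Csf1, Il34, C3, Cfi, Csf3r, Lamp1, Lamp2, Dcn, Cd3e and Cd36 were added after their values were seen. Alternatives were other scalings, a normexp background (offset 50), the deposited table, other filters and probe summaries, and other fold thresholds. Some genes that the rule selects are not reported here. The spike-in scale used 8 E1A controls. The steps were tested on simulated data. Tools were Python 3.11.15, numpy 2.4.6, pandas 2.3.3, statsmodels 0.14.6 (loess, span 0.3), matplotlib 3.10.9, and limma 3.58.1 in R 4.3.3.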

Additional observations from a re-analysis of the deposited data

How the results depend on the processing

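Without scaling, 10 members were at least 2-fold lower, their median log2 ratio was -1.20 and 722 genes in the members' signal range were at least 2-fold lower, against 5, -0.95 and 359 as reported. With E1A spike-in scaling these were 8, -1.12 and 588. The normexp background left 125 genes in that range, and keeping the brighter part of the probes (above each array's median) left 110 with a member median of -1.05 over 9 members. At 1.5-fold all 10 members and 1096 genes in the range were counted, and at 3-fold 0 members and 51 genes. Across the array, 369 genes were at least 2-fold lower and 258 higher as reported; these were 759 and 116 without scaling, 609 and 139 with spike-ins, 128 and 135 with normexp, 1235 and 994 without the filter on dim probes, and 229 and 148 above the median signal. Of 129 values of single members under these settings, 119 kept their side of 2-fold, 8 passed it and 2 fell short. No member changed direction. The 119 include values from settings that could not move the member, so this count does not measure how stable the ratios are. Leaving out the Csf1r probe that differed, a choice made after seeing the data, kept the count at 5. The normexp background moves dim genes most, so ratios near the floor, such as that of Cd163, are the least certain. No replicate could be left out with 1 array per genotype. No paired analysis was possible because each group holds 1 array.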

Other observations

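Of the measured T and NK cell markers, 8 of 9 had a log2 ratio below 0 (from -1.35 to 0.04), as did 7 of 8 B and plasma cell markers (-1.34 to 0.16), 7 of 8 dendritic cell markers (-1.04 to 0.11) and 5 of 7 neutrophil markers (-1.75 to 0.19). Over all measured genes, 43.1% were below 0. The genes named here are among those with the largest absolute ratios in each list. The T cell receptor chain gene Cd3d had a log2 ratio of -1.35, Cd3g -1.02, Cd8b1 -0.91 and the kinase Lck -0.88; with the normexp background these 4 were -0.87, -0.43, -0.25 and -0.73. Among B cell genes, Ms4a1 had -1.34 (-0.71 with normexp), Cd79b -0.97 (-0.80) and Fcrla -0.75 (-0.15). Among dendritic cell genes, the transcription factor Batf3 had -1.04 (-0.81 with normexp), Ccr7 and Cd209a had -0.81 each (-0.48 and -0.15) and Flt3 -0.57 (-0.18). The calprotectin genes S100a8 and S100a9 had -1.75 and -1.65, while Retnlg had -0.65 (-0.0055 with normexp) and the granule peptide gene Camp 0.19, the last of these below 0 without scaling.

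Among markers of cells that are not leukocytes, the endothelial genes Lyve1, Cdh5, Tek and Gpr182 had -0.66, -0.44, -0.29 and -0.26. Among stellate cell genes, Acta2 had -1.01, short of 2-fold with median, quantile or normexp processing, Ngfr had -0.70, Col3a1 -0.61 and Col1a1 -0.57. The hepatocyte genes Tat, Cps1, Ass1 and Pck1 had 1.32, 0.99, 0.92 and 0.65. Among cholangiocyte and erythroid genes, Cftr stood at 0.34, Epcam at -0.20 (above 0 with normexp), Sox9 at 0.18 (below 0 without scaling), Krt19 at -0.11, Klf1 at 0.86, Ermap at 0.16, Hba-a1 at 0.05 and Hbb-b1 at -0.05; the last 3 changed sign under other scalings.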
